A study of Mus musculus with 6 samples.

Results

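The 10 genes described here encode enzymes of glycolysis and were taken by name, in pathway order: Hk2, Gpi1, Pfkl, Aldoa, Tpi1, Pgk1, Pgam1, Eno1, Pkm and Ldha. All 10 were listed in each of the 4 RNA libraries, out of 14455 gene symbols listed in at least 1 of them. The libraries came from sorted mouse bone marrow cells called LSK, which lack lineage markers and carry both Sca-1 and c-Kit, a gate that takes in blood stem cells and multipotent progenitors. The mice were of strain C57BL/6 and were either wild type (WT) or deleted for Setd2 (KO), the gene of the enzyme that trimethylates lysine 36 of histone H3. The labels place the cells 4 weeks (young) or 8 months (old) after induction with pI-pC, a double-stranded RNA used to switch on inducible deletions, and give that time for WT and KO cells alike. The driver of the deletion, the age of the mice at induction and the number of mice behind a library are not given in the sources used here.

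Each of the 4 groups, WT and KO at either age, had 1 library, so the differences below carry no p-value and no check by replicates. Values are scaled FPKM, the deposited read density per length of transcript and size of library, after the libraries were scaled to each other. FPKM is per length, so levels of different genes can be set side by side, except where near-identical copies divide a gene's reads. Differences are on the log2(FPKM + 1) scale, KO minus WT unless stated otherwise, and 1 on that scale is called 2-fold. Each is given ± the distance to either end of its 95% counting interval, worked out for 1 kb of exon and therefore wider than needed for longer transcripts. It covers counting error only.

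Glycolysis turns glucose into pyruvate in the cytosol. The first enzymes spend ATP to prime the sugar and split it, the later ones recover ATP, and lactate dehydrogenase can reduce pyruvate to lactate, which returns NAD+ to the pathway. In bone marrow, stem cells are known for leaning on glycolysis in a niche with little oxygen, where the factor HIF1A drives many genes of the pathway, while dividing and maturing progenitors use mitochondrial respiration more.

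Setd2 itself (ENSMUSG00000044791) stood at 14.1, 12.4, 15.3 and 15.5 in young WT and KO, then old WT and KO, the order used throughout. This gene-level value includes RNA from outside the deleted part and does not check the labels. All 10 markers of stem and multipotent progenitor cells in the fixed list were listed in every library, with Kit between 41.1 and 61.0 and Ly6a, the gene of Sca-1, between 3.17 and 8.80. Their levels were not the same in all. In old KO 8 of the 10 were below old WT, at a median of -0.22. Of these, 3 were lower by 0.5 or more and 2 by 2-fold, as were 8.44% and 2.66% of all genes measured. In young KO 7 of the 10 were below young WT, at a median of -0.15, with none lower by 0.5. Xist was listed only in the old libraries and the Y-linked genes Eif2s3y and Ddx3y only in the young ones, so age cannot be told apart from sex here. Immunoglobulin segments held 26.7% of the FPKM of old WT, against 0.618% to 4.63% in the other libraries. An FPKM of 1 on 1 kb of exon corresponded to 9.57, 9.04, 17.9 and 18.1 counted units, from the spacing of low values.

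The order of the enzymes' levels was nearly the same in all 4 libraries. Pkm, the pyruvate kinase gene, was the highest with 230.1 to 266, and Hk2, one of the hexokinase genes, the lowest with 9.86 to 16.1. Between them, from high to low by their mean, lay Pgam1, Ldha, Pgk1, Tpi1, Gpi1, Aldoa, Pfkl and Eno1. The place of Eno1 leaves out its copy Eno1b, taken up below. The only change of rank was in old KO, where Gpi1 stood above Tpi1. Ranges over the 4 libraries overlapped between the neighbours Ldha and Pgk1, Tpi1 and Gpi1, and Gpi1 and Aldoa. The libraries are different conditions and not replicates, so these ranges measure no spread. Within each library Ldha stood above Pgk1, and Gpi1 above Aldoa. A gene's highest library stood at 1.05 to 1.63 times its lowest, the extremes being Ldha and Hk2.

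**Figure D1:**
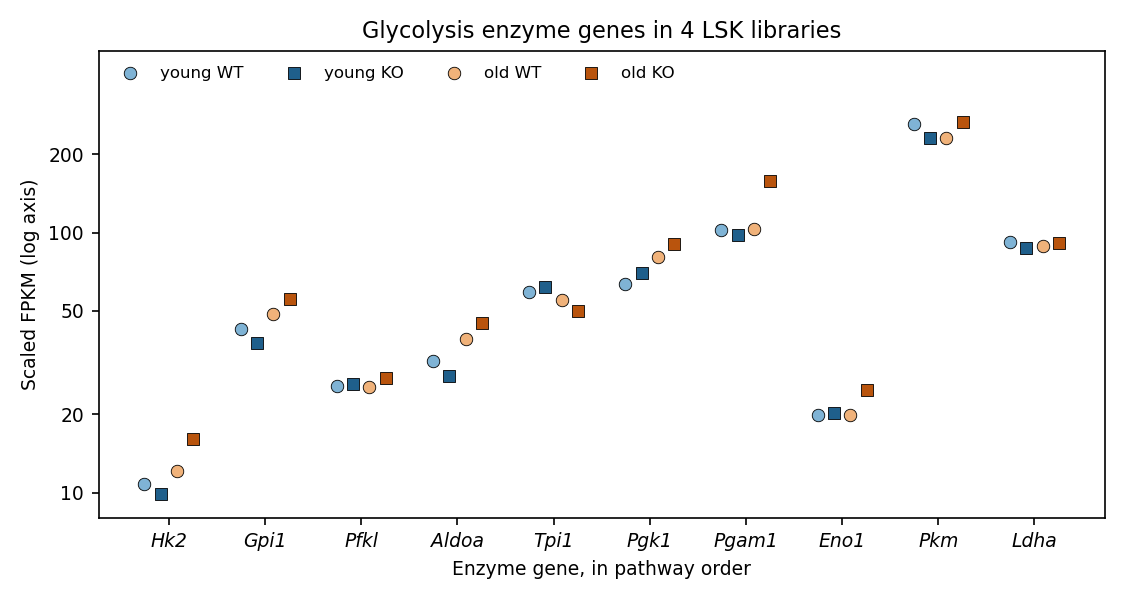
Scaled FPKM (log axis) of the 10 enzyme genes in pathway order, 1 point per library, circles for WT and squares for KO, blue for young and orange for old. Old KO is the highest point for 8 genes at the scaling shown (6 under the others) and the lowest for Tpi1 (49.8), while Ldha hardly varies (87.5 to 92.1).

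Old KO was the highest of the 4 libraries for 8 of the 10 genes, all but Tpi1 and Ldha. The same held for 29.1% of the 10936 genes at 1 or more in every library. Without scaling, and with each of the 3 other scalings, it was 6 of 10, all but Tpi1, Ldha, Pfkl and Pkm. Young KO was the lowest for 6 of the 10, as it was for 24.3% of those genes. With scaling on upper quartiles, on housekeeping genes or on a total without antigen receptor segments and 2 predicted genes (the reduced total), it was 3 of 10, Hk2, Gpi1 and Aldoa.

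The first 5 enzymes carry glucose to triose phosphate. Hk2 (ENSMUSG00000000628, mm10 chromosome 6, 82725025 to 82774454) encodes a hexokinase, which phosphorylates glucose on entry, and stood at 10.8, 9.86, 12.1 and 16.1. Its old KO value was apart from the other values, which lay close together. The old difference was 0.39 ± 0.26 and the young one -0.12 ± 0.41. Gpi1 (ENSMUSG00000036427, chromosome 7, 34201330 to 34230336), whose product turns glucose 6-phosphate into fructose 6-phosphate, stood at 42.4, 37.5, 48.6 and 55.7. Both old libraries were above both young ones for Gpi1, except with scaling on housekeeping genes, where old WT was at -0.02 from young WT, with KO below WT in young (-0.17 ± 0.21) and above it in old cells (0.19 ± 0.13).

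Pfkl (ENSMUSG00000020277, chromosome 10, 77986947 to 78010083), the liver-type phosphofructokinase of the committed step, stood at 25.6, 26.1, 25.4 and 27.5. Its KO differences were within counting error at both ages, 0.03 ± 0.26 in young and 0.11 ± 0.19 in old cells. Aldoa (ENSMUSG00000030695, chromosome 7, 126795234 to 126800751), the aldolase that splits the sugar, stood at 32.0, 28.2, 39.0 and 45.0. As for Gpi1, both old libraries were above both young ones, and the KO differences had opposite signs, -0.18 ± 0.24 in young and 0.20 ± 0.15 in old cells. Tpi1 (ENSMUSG00000023456, chromosome 6, 124810586 to 124814296), which interconverts the triose phosphates, went the other way in old cells, at 59.0, 61.5, 55.0 and 49.8. It was the only member lower in old KO than in old WT, at -0.14 ± 0.13, and the young difference was 0.06 ± 0.17.

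The last 5 genes act after the oxidation of glyceraldehyde 3-phosphate. Pgk1 (ENSMUSG00000062070, chromosome X, 106187100 to 106203699), whose product makes the first ATP of the pathway, stood at 63.6, 69.7, 80.5 and 90.2. KO was above WT at both ages, by 0.13 ± 0.16 and 0.16 ± 0.10, and both old libraries were above both young ones, except on housekeeping genes. Pgk1 is X-linked, and its difference between ages cannot be told apart from the difference in Xist.

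Pgam1 (ENSMUSG00000011752, chromosome 19, 41911871 to 41918664), the mutase that moves the phosphate within phosphoglycerate, stood at 102, 97.7, 103 and 157. The first 3 libraries were level and old KO stood 52.2% above old WT, the largest KO difference of any member (0.60 ± 0.09, against -0.06 ± 0.13 in young cells). Eno1 (ENSMUSG00000063524, chromosome 4, 150236721 to 150248879), the enolase that forms phosphoenolpyruvate, stood at 19.8, 20.3, 19.97 and 24.9. Again the first 3 libraries were level and old KO was higher, with differences of 0.04 ± 0.29 in young and 0.30 ± 0.20 in old cells.

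Pkm (ENSMUSG00000032294, chromosome 9, 59656368 to 59679375), whose product makes pyruvate and the last ATP, stood at 261, 230.1, 231 and 266. Young WT and old KO were high and young KO and old WT low, so that the KO difference was -0.18 ± 0.08 in young and 0.20 ± 0.06 in old cells. The files give 1 value per gene, so the M1 and M2 splice forms of Pkm were not separated. Ldha (ENSMUSG00000063229, chromosome 7, 46841475 to 46855627), the lactate dehydrogenase subunit that predominates in dividing cells, stood at 92.1, 87.5, 89.0 and 91.3. Its differences, -0.07 ± 0.14 and 0.04 ± 0.10, were within counting error.

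**Figure D2:**
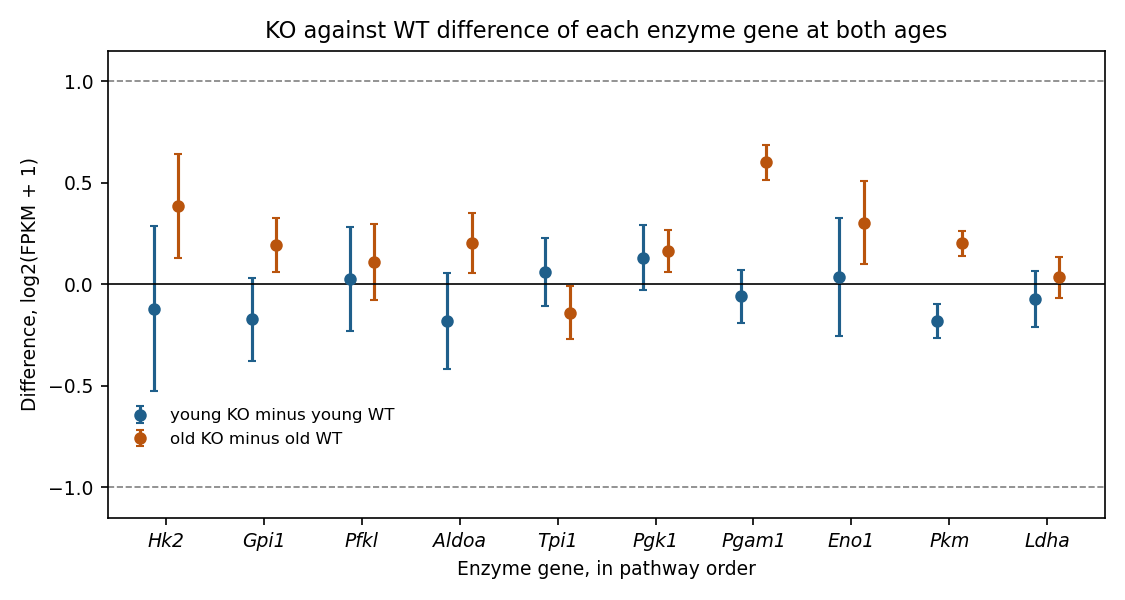
Difference between KO and WT of each enzyme gene on the log2(FPKM + 1) scale in young (blue) and old (orange) cells, with bars for the 95% counting interval at 1 kb of exon and dashed lines at 2-fold. No gene reaches 2-fold, and Pgam1 in old cells (0.60) lies furthest from 0.

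In young cells no member differed by 2-fold, among 12409 genes measured of which 1.02% were 2-fold higher and 0.701% 2-fold lower in KO. No member reached 0.5 on the log2 scale either, where 5.67% of genes were higher and 5.54% lower by that much. Of the members, 6 were below 0 and 4 above, against 49.5% and 50.5% of all genes, and the members' median was -0.07 against 0.00 over all genes. Without scaling 1 of 10 was above 0, since Pfkl, Tpi1 and Eno1 changed sign. Pkm alone lay outside its counting interval, on the lower side, as did 6.16% of the 6497 genes at 5 or more in both libraries, while no member lay on the higher side, as 7.26% did. Without scaling 5 members lay on the lower side, Gpi1, Aldoa, Pgam1, Pkm and Ldha, beside 12.8% of genes.

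In old cells most of the enzyme genes were slightly higher in KO, with none at 2-fold, where 1.63% of 12478 measured genes were 2-fold higher and 2.66% 2-fold lower. Of the members, 9 of 10 were above 0, against 50.3% of all genes, and 1 below, against 49.7%, and their median was 0.20 against 0.00. Under the reduced total, Ldha turned to -0.07, the members' median was 0.10 and that of all genes -0.09. Pgam1 alone reached 0.5, as did 7.49% of genes, and no member was lower by that much, as 8.44% were, so 1 of 10 is near the background, and under the reduced total Pgam1 stood at 0.499. On the higher side of the counting interval were 7 members, Hk2, Gpi1, Aldoa, Pgk1, Pgam1, Eno1 and Pkm, against 19.7% of the 6547 genes at 5 or more in both libraries. Under the reduced total these were 4, Hk2, Pgam1, Eno1 and Pkm, beside 12.6% of genes. Tpi1 was outside on the lower side, as were 10.6%, but inside with a pseudocount of 5 or with a counting step 2 times as large in the old libraries.

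The promoters of several members are textbook sites of HIF1A and of MYC. RefSeq start sites on GRCm38.p6 were found for all 10 genes, 16 in all, and the 250 bases before each were searched on both strands for ACGTG, the core of the hypoxia response element, and for CACGTG, an E-box that contains that core and is bound by MYC. At least 1 window of 6 of the 10 genes held ACGTG, namely of Hk2, Aldoa, Pgk1, Pgam1, Pkm and Ldha, against 18.5% of all 27025 genes with such windows. By windows it was 7 of 16 against 16.6% of 32851. CACGTG was in 1 of 10, Ldha, against 6.86% of genes. The windows of the members were 50.4% to 71.2% G and C, and the content of all windows was not worked out. Members and other genes were not matched for it or for number of start sites, so no enrichment is read from these shares. Gpi1, Pfkl, Tpi1 and Eno1 had no ACGTG in any of their windows. The 4 windows given are all from the 6 genes with ACGTG, so genes without it are not among them. They were chosen to span the old KO differences of those 6, from Pgam1 and Hk2 with the largest through Pgk1 to Ldha with almost none. Capitals mark ACGTG or its reverse, CACGT, and all run 5′ to 3′ on the gene's strand up to the base before the start site. That of Ldha lies inside the locus the files give for the gene.
Pgam1 (chr19:41911621-41911870, + strand): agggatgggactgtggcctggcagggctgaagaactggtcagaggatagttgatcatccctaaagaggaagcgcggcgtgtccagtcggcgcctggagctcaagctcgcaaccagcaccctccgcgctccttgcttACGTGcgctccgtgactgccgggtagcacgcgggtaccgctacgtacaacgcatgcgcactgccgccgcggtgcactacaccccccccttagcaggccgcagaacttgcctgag
Hk2 (chr6:82774455-82774704, - strand): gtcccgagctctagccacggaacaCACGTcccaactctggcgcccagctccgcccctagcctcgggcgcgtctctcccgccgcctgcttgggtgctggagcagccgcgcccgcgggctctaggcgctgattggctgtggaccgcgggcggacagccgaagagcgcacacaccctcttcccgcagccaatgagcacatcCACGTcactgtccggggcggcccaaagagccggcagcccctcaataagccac
Pgk1 (chrX:106186850-106187099, + strand): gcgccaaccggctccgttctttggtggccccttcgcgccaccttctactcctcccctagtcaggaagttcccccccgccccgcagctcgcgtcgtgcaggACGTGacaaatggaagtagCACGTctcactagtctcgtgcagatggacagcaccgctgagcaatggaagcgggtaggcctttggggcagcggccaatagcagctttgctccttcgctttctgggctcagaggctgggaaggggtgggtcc
Ldha (chr7:46845554-46845803, + strand): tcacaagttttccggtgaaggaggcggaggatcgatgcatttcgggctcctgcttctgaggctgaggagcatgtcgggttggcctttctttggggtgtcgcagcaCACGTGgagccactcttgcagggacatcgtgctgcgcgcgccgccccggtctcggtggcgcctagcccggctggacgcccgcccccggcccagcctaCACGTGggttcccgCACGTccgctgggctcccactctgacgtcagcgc

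In these windows Pgam1 had 1 such site, at -114 from the start site, Hk2 2, at -226 and -52, Pgk1 2, at -150 and -131, and Ldha 3, at -145, -48 and -34, with overlapping matches counted once. Aldoa had 1 site in 2 overlapping windows and Pkm 1 in 1 of its 2. Whether these counts go with the differences in expression was not tested, since the 4 genes were chosen by theirs. Binding was not measured, and a match is no more than these letters in this window.

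Summed over the 10 genes, the level was 708, 669, 704 and 824. The sum of the first 5 genes was 169.9, 163, 180.0 and 194, and that of the last 5 was 538, 505, 524 and 630, of which Pkm and Pgam1 made up the larger part in every library. Old KO was the highest in each of these sums and young KO the lowest, but this order depends on the scaling. As a share of all FPKM of the library the 10 genes held 0.324%, 0.277%, 0.223% and 0.309%, highest in young WT and lowest in old WT, where immunoglobulin segments held much of the total. Under the reduced total the sums were 753, 707, 689 and 751.

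The signed KO minus WT difference was higher in old than in young cells for 9 of the 10 genes. The same held for 50.1% of the 10936 genes at 1 or more in every library. This counts direction and not size, since Ldha went from -0.07 to 0.04 and Tpi1 from 0.06 to -0.14. The median of the change from young to old was 0.32 for the members and 0.00 over all genes. Under the reduced total the signed difference was higher in old cells for 7 of the 10, beside 40.6% of genes. Pfkl and Pgk1 were no longer among them, and the median change was 0.23. The change was largest for Pgam1, at 0.66 ± 0.16, and Hk2, at 0.51 ± 0.48, and Tpi1 alone went down, at -0.20 ± 0.21. KO differences had opposite signs at the 2 ages for 7 members. The share of all genes that did so was not worked out, so no more is read from this count. It also depends on the scaling, since Pfkl, Tpi1 and Eno1 changed sign in young cells without scaling and Ldha in old cells under the reduced total. Among these members, in Pkm alone both differences lay outside their counting intervals.

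Between ages, the WT members did not share a direction. Of the 10, 6 were above 0 in old WT against young WT and 4 below, against 49.2% and 50.8% of all genes, with a median of 0.02. None was at 2-fold, where 4.22% of genes were higher and 1.33% lower, and none at 0.5, where 12.3% were higher and 8.31% lower. Gpi1, Aldoa and Pgk1 were higher beyond their counting intervals, as were 19% of genes at 5 or more, and Pkm was lower, as were 14.1%. On housekeeping genes none was higher and 4 were lower, Tpi1, Pgam1, Pkm and Ldha, beside 33% of genes. With scaling on housekeeping genes that median was -0.19, beside -0.19 for all genes, and Hk2, Gpi1, Pgam1 and Eno1 turned below 0. Old KO against young KO gave 9 of 10 above 0, against 49.8% of all genes, and 1 below, against 50.2%, with a median of 0.32. None was at 2-fold, where 4.95% were higher and 2.24% lower. Hk2, Gpi1, Aldoa and Pgam1 reached 0.5 there, as did 15.2% of genes, and none was lower by that much, as 10.9% were. Beyond the counting interval 7 members were higher, the same 7 as in old KO against old WT, beside 23.6% of genes, and Tpi1 was lower, beside 13.7%. Scaled on housekeeping genes, no member was higher by 0.5 and Tpi1 was lower, at -0.52, while Pfkl, Pkm and Ldha turned below 0, beside a median of all genes of -0.20. Hk2, Gpi1, Aldoa, Pgk1 and Pgam1 were then still higher beyond their counting intervals, beside 14.1% of genes. These comparisons share libraries with the KO comparisons and add no independent evidence to them.

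Markers of other blood cells, which the sort for cells without lineage markers should remove, differed in the same libraries, although progenitors themselves express some neutrophil markers such as Mpo. In old cells all 12 neutrophil markers were higher in KO by 0.5 or more, with a summed level of 1266 in WT and 2302 in KO, and so were all 10 monocyte and macrophage markers, at 91.1 and 398. All 10 plasma cell markers were 2-fold lower, at 2212 and 211. All 8 mast cell, basophil and eosinophil markers measured were below 0 in old KO, at 299.7 in WT and 135 in KO, with 648 and 586 in young cells. Of 6 megakaryocyte and platelet markers measured 5 were below 0, with a median of -0.68 and sums of 48.8 and 31.4. In young cells the sums were 936 and 846 for neutrophil markers, with 6 of the 12 not listed in WT and 4 not in KO, and 86.3 and 78.8 for monocyte markers, of which at most 1 of 10 was not listed in any library. Dividing cell markers were above 0 for 13 of 15 genes in young and 14 of 15 in old KO, with medians of 0.29 and 0.18. The part of these cells in the enzyme differences was not tested. In bulk libraries, fewer cells of a type and less RNA per cell cannot be told apart.

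Glycolytic steps are shared out among isozymes, and some of these differed more between libraries than the 10 members did. In the fixed list of other isozymes, Gapdh among them, 12 genes were listed. Of the 11 measured, 7 were above 0 in each KO comparison, with medians of 0.13 in young and 0.12 in old cells. Pklr, the pyruvate kinase of liver and red cells (ENSMUSG00000041237, chromosome 3, 89136142 to 89146784), stood at 6.18, 15.4, 14.9 and 5.71. It was high in young KO and old WT and low in the other libraries, the reverse of Pkm, with KO differences of 1.19 ± 0.43 in young and -1.25 ± 0.33 in old cells. These 2 values were the only ones past 2-fold among the members and the listed isozymes, and with a pseudocount of 5 they were 0.87 and -0.90. Pklr's share of pyruvate kinase FPKM was 2.32%, 6.28%, 6.07% and 2.10%.

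Red cell markers, all listed in every library, were higher in young KO, as Pklr was. In young cells 16 of 16 were above 0 in KO, with a summed level of 389.8 in WT and 862 in KO, and in old cells 9 of 16 were below 0 and 7 above, at 370.1 and 266. Klf1, a marker of this list named after its values were seen, stood at 12.3, 28.7, 20.6 and 12.4, highest in young KO and next in old WT. The list as a whole was not higher in old WT than in young WT. Of the 16 markers 9 were above 0 there, 6 by 0.5 or more, and 7 were lower by 0.5 or more, 6 of them 2-fold. Of all genes 12.3% were higher and 8.31% lower by 0.5. The part of red cell precursors in the Pklr values was not tested. Bpgm, another enzyme known from red cells, which makes 2,3-bisphosphoglycerate, stood at 2.82, 2.57, 2.41 and 2.44 and did not differ beyond counting error in either KO comparison.

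Phosphofructokinase RNA had another makeup in old KO. Pfkm, the muscle form, stood at 25.7, 28.2, 27.9 and 17.5, with old KO below the other libraries and a difference of -0.65 ± 0.21 against 0.13 ± 0.25 in young cells. Pfkp, the platelet form, stood at 4.44, 5.26, 5.16 and 7.83, with an old difference of 0.52 ± 0.38. With Pfkl level, the share of Pfkl in the family was 45.9%, 43.8%, 43.4% and 52.1%, that of Pfkm 46.1%, 47.3%, 47.7% and 33.1%, and that of Pfkp 7.96%, 8.83%, 8.83% and 14.8%. The sum of the 3 genes was 55.8, 59.6, 58.5 and 52.8, so the family as a whole was not higher in old KO. Pfkm overlaps Senp1 by 1156 bp and a predicted gene by 2489 bp, and reads shared with them were not separated here.

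Hexokinase RNA was spread over 3 genes. Hk1, the form found in most tissues, stood at 20.9, 22.4, 23.0 and 20.6, with KO differences within counting error. Hk3, a form known from myeloid cells, stood at 19.9, 19.4, 21.1 and 26.5, and like Hk2 it was highest in old KO (0.31 ± 0.20). The share of Hk2 in the 3 was 20.9%, 19.1%, 21.5% and 25.5%, that of Hk3 38.6%, 37.6%, 37.6% and 42.0% and that of Hk1 40.5%, 43.3%, 40.9% and 32.6%, so Hk1 was the highest form in the first 3 libraries and Hk3 in old KO. Adpgk, which uses ADP in place of ATP, stood at 20.8, 23.2, 19.8 and 21.6.

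Ldhb, the lactate dehydrogenase subunit known from oxidative tissues, stood at 7.68, 11.2, 11.6 and 14.5. KO was above WT at both ages, by 0.49 ± 0.43 and 0.30 ± 0.27, and its share of the 2 subunits was 7.69%, 11.3%, 11.5% and 13.7%, lowest in young WT. Aldoc, at 0.655, 0.712, 0.545 and 0.632, added at most 2.46% to aldolase, and Eno3, at 1.84, 1.18, 2.03 and 1.51, at most 5.10% to enolase. Gapdh, which acts between Tpi1 and Pgk1 and is not among the 10, stood at 12.7, 10.8, 11.5 and 19.2. It was level in the first 3 libraries and higher in old KO, by 0.69 ± 0.25, as Pgam1 was, which acts after Pgk1.

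**Figure D3:**
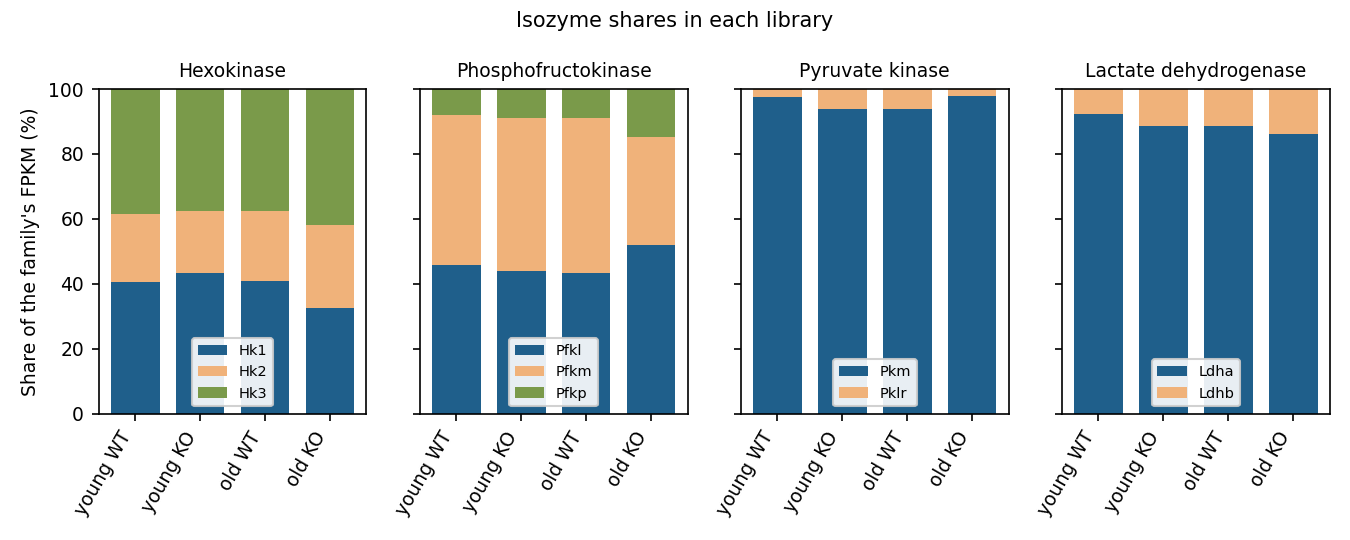
Share of each isozyme in the summed FPKM of 4 enzyme families (percent, stacked bars from 0 to 100), 1 bar per library. In old KO the phosphofructokinase bar has less Pfkm (33.1%) than in the other libraries (46.1% to 47.7%), and the Pklr segment is largest in young KO and old WT.

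Some members have near-identical copies in the genome, between which short reads can be divided in ways the values do not show. Eno1b, a retrotransposed copy of Eno1, stood at 16.03, 22.0, 17.8 and 24.0, nearly as high as Eno1, and in KO it was higher at both ages, by 0.43 ± 0.30 and 0.41 ± 0.21. Summed with it, Eno1 stood at 35.8, 42.3, 37.8 and 48.9, above Pfkl in every library. That sum differed by 0.23 in young and 0.36 in old cells. Pgam1-ps2, a pseudogene of Pgam1 (chromosome 7, 27469771 to 27470535), stood at 34.0, 28.9, 24.1 and 41.4, highest in old KO as Pgam1 was. Summed with it, Pgam1 differed by -0.10 and 0.64. Tpi-rs11, a short sequence related to Tpi1, stood at 5.38, 7.64, 6.07 and 8.21, and summed with it Tpi1 differed by 0.10 and -0.07. The levels of Eno1, Pgam1 and Tpi1 are therefore uncertain, by an amount that these sums do not bound. The sums add densities over sequences of unlike length and are not corrected values. Copies of Gapdh were not examined, so its level and difference carry the same reservation. Of the 10 loci, Tpi1 alone overlapped another listed gene, Spsb2, by 34 bp.

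Of the transcription factors known to act on glycolysis genes and their regulators, 4 of 13 measured were above 0 in young KO and 4 of 14 in old KO, with medians of -0.07 and -0.07. Hif1a itself stood at 9.77, 8.79, 10.4 and 6.34, lower in old KO than in the other libraries (-0.63 ± 0.34), while the members were mostly higher there. Egln3, a HIF target that encodes one of the prolyl hydroxylases marking HIF1A for decay, stood at 11.3, 6.23, 12.4 and 15.5, low in young KO (-0.77 ± 0.46). Another of these hydroxylases, Egln1, was also lower in young KO, at 10.4, 7.06, 12.3 and 11.2 (-0.50 ± 0.45). Mlx, the partner of the glucose-sensing Mondo factors, stood at 6.83, 10.7, 7.74 and 7.23, higher in young KO (0.57 ± 0.45). Myc was level at 10.8, 10.2, 9.43 and 10.4. Epas1, which encodes HIF2A, was at most 1.11 and not listed in old KO.

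HIF targets outside glycolysis had medians near 0. Of 13 measured, 6 were above 0 in each KO comparison, at -0.01 in young and -0.04 in old cells. Ndrg1 stood at 18.0, 10.8, 11.3 and 9.72, highest in young WT (-0.68 ± 0.36 in young cells). Ddit4, an inhibitor of mTOR signalling, stood at 8.15, 9.17, 27.5 and 15.0, high in old WT and lower in old KO (-0.84 ± 0.22). Anxa2, which encodes a membrane-binding annexin, was higher in old KO, at 8.17, 7.97, 8.65 and 17.0 (0.90 ± 0.28), and no gene of this list reached 2-fold.

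Carriers and flux regulators were more often below 0 than above it in old KO, but nearly all within counting error. Of 9 carriers measured 7 were below 0 in old KO, beside 49.7% of all genes, at a median of -0.18. All 9 lay within their counting intervals there. Of 8 in young KO 5 were below 0, beside 49.5%, at -0.04, with none at 0.5 in either comparison. The glucose carrier Slc2a1 stood at 5.98, 4.08, 6.16 and 4.67, lower in KO at both ages (-0.46 ± 0.59 and -0.34 ± 0.41, within counting error in both), and Slc2a3 at 7.28, 7.18, 7.55 and 6.30. Slc16a1, which carries lactate and pyruvate, stood at 29.3, 32.5, 24.4 and 21.4, and its chaperone Bsg at 30.7, 29.5, 33.8 and 30.4. Among flux regulators 8 of 11 were below 0 in old KO, at a median of -0.19, and 5 of 11 in young KO, at 0.04. In old KO only Pdp1, lower at -0.96 ± 0.89, and Pdp2, higher at 0.28 ± 0.26, lay outside their counting intervals. Pdk3, one of the kinases that shut pyruvate dehydrogenase, stood at 14.6, 17.9, 17.6 and 15.3, and Txnip, which restrains glucose uptake, at 63.0, 64.8, 47.3 and 51.6.

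The pentose phosphate pathway, which branches off at glucose 6-phosphate, had 7 of 8 genes above 0 in old KO, with a median of 0.29 and none at 0.5. In young KO 5 of 8 were above 0, with a median of 0.00. The transketolase Tkt stood at 73.0, 73.3, 78.6 and 92.0 and the transaldolase Taldo1 at 35.7, 37.7, 44.8 and 49.1, both highest in old KO. G6pdx, the entry enzyme, stood at 17.7, 17.7, 20.2 and 28.7 and Pgd, the next dehydrogenase, at 21.1, 19.98, 19.9 and 26.7, likewise highest there, and these were named after their values were seen. The 24 genes from pyruvate import to the citric acid cycle had 7 above 0 and 17 below in old KO, at a median of -0.08, and 14 above and 10 below in young KO, at 0.02. Citrate synthase, Cs, stood at 87.9, 88.2, 81.7 and 79.2, and Sdhd, a subunit of succinate dehydrogenase, at 69.1, 55.4, 73.1 and 57.8, lower in KO at both ages. Of gluconeogenesis 3 genes were measured, all below 0 in old KO, with Pck2, a mitochondrial enzyme, at 26.1, 30.1, 32.3 and 27.6 and the phosphatase G6pc3 at 9.996, 12.4, 7.44 and 7.03.

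**Figure D4:**
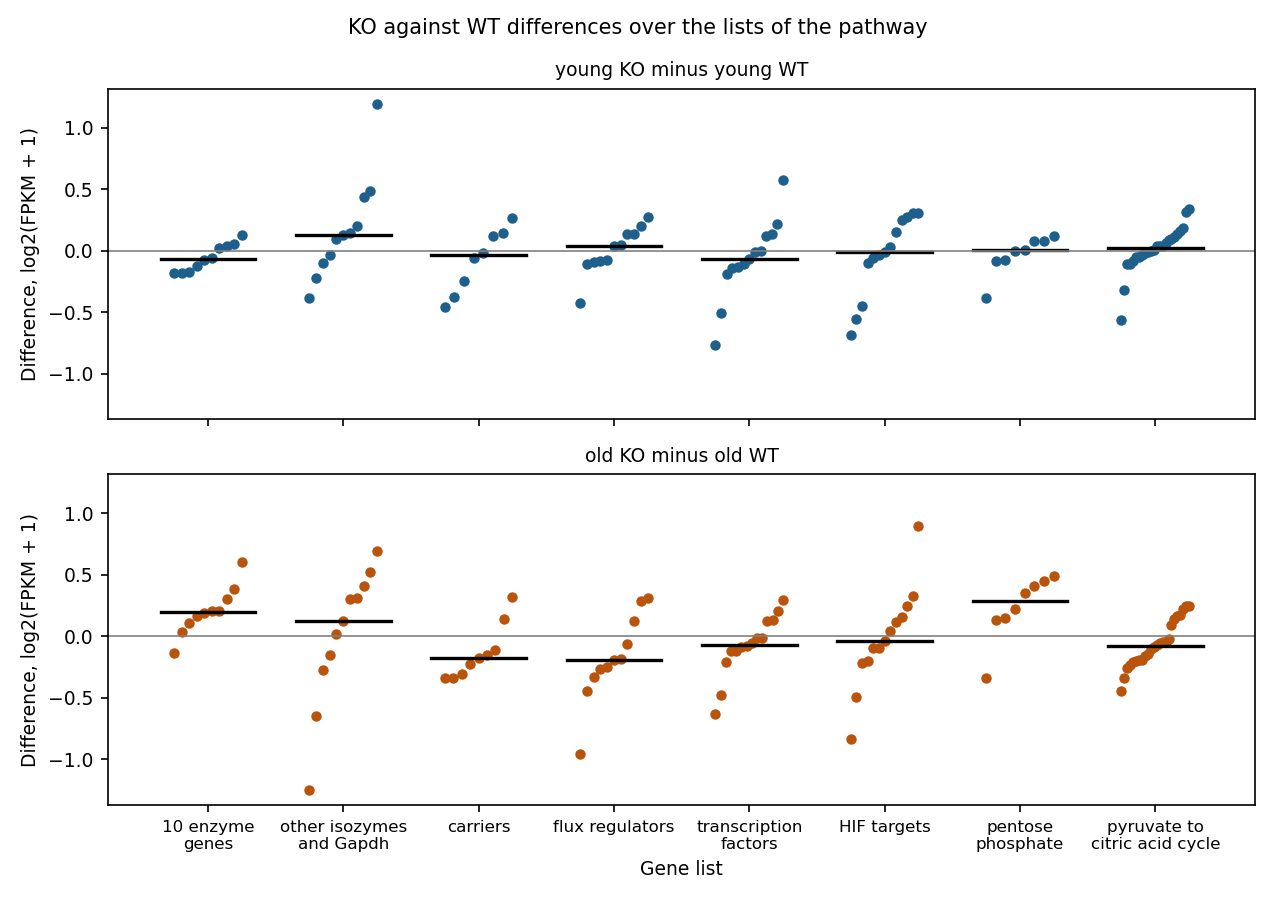
Difference between KO and WT on the log2(FPKM + 1) scale in young (top) and old (bottom) cells, 1 point per measured gene, for the 10 enzyme genes and 7 other lists, with black lines at list medians. In old cells the medians of the enzyme genes (0.20) and the pentose phosphate genes (0.29) lie above 0 and those of the carriers (-0.18) and flux regulators (-0.19) below.

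The member that varied most over the 4 libraries on the log2 scale was Pgam1. Among 5619 other genes at 5 or more in every library, the 5 whose values, centred on their mean, lay nearest to it were B9d2, Tmem173, Psmd8, Hist1h2bb and H2-Aa, at Euclidean distances of 0.06 to 0.09. B9d2, a gene of the ciliary base, stood at 9.32, 8.66, 9.62 and 14.3, and Tmem173, which encodes the DNA sensing adaptor STING, at 28.9, 26.4, 27.6 and 44.2. All 5 had 3 level libraries and a higher old KO. Of the other members, Hk2 came nearest, at rank 44, and Tpi1 was furthest, at rank 4483. The likeness rests on 4 values per gene and is a description only.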

How the data were processed

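RNA of sorted LSK cells was measured by total RNA sequencing in 4 libraries, per the labels' protocols. The 2 bisulfite samples were not analysed here. The deposited files give 1 FPKM per gene, per the file headers, and list only genes at 0.5 or more, seen in the values. Per the submitters' processing notes the build was mm10 (GRCm38), and HISAT2 2.0.4 and StringTie 1.3.0 are among the tools named, with no role or order. Annotation and strand setting are not given in the sources used here.

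Of 14468 gene identifiers 14382 matched a table of names, and 18 symbols turned into dates were restored. Rows sharing a symbol were summed, and genes a file did not list were set to 0.5. Libraries were divided by median-of-ratios factors (1.06 and 0.981 for young WT and KO, 0.982 and 0.979 for old WT and KO) over 10935 genes at 1 or more in all 4. Differences used a pseudocount of 1, which understates changes of low genes. A gene counted as measured where either library of a comparison had a scaled value of 1 or more. Counted units were estimated from the spacing of FPKM times locus length below 1500 bp, where 62.0%, 62.8%, 72.7% and 69.8% of low values were whole multiples within 0.02. The step was 0.104 and 0.111 for young WT and KO but 0.0560 and 0.0553 for old WT and KO, and the narrower intervals at the old age rest on it. Whether 1 step stands for a read or a pair is not stated and may differ between the ages. The scaling and the differences were tested on simulated data, with planted changes larger than those of any member. The counting step and the intervals were not tested. Python 3.11.15, pandas 2.3.3 and numpy 2.4.6 were used.

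The 10 members and the 20 gene lists were chosen with earlier results of these data known. The text names all members and listed isozymes. Of the other pathway lists it names genes at 5 or more in any library with a KO difference of 0.5 or more, or else the 2 highest, with copies of members at 5 or more. Beyond that rule Slc2a1, Slc2a3, Pdp1, Pdp2, Myc, Epas1, G6pdx, Pgd and Klf1 were named after their values were seen. Alternatives were other scalings, pseudocounts, filters, unlisted genes at 0 and the highest row of a shared symbol. A counting step 2 times as large in the old libraries was added after seeing the data.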

Additional observations from a re-analysis of the deposited data

Results flagged for a closer look

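Among the members, the listed isozymes, Pgam1-ps2 and Tpi-rs11, 2 genes had KO differences of opposite sign at both ages, each outside its counting interval. The share of all genes that did so was not worked out, so no more is read from this count. Whether the ages differ was not tested, since each group had 1 library. For Pkm the old KO difference lay 0.38 above the young one on the log2 scale, with -0.18 at the young age and 0.20 at the old. For Pklr it lay at -2.44 from the young one (1.19 and -1.25). Red cell markers were higher in young KO, while in old KO 9 of 16 were lower and 7 higher. Their part in the result was not tested.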

How the results depend on the processing

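The 20 KO differences of the members were recomputed under 10 settings, and 4 changed sign under any of them, Pfkl, Tpi1 and Eno1 in young cells without scaling and Ldha in old cells under the reduced total. The filters and unlisted genes at 0 could not move these differences, since every member stood at 9.86 or more in every library. The members' median lay between -0.18 and -0.05 in young and between 0.10 and 0.20 in old cells. Without scaling 1 member was above 0 and 5 were lower beyond the counting interval in young cells, and the median of all genes moved to -0.10. In old KO against old WT the reduced total left 0 members at 0.5 and 4 higher beyond the interval, and 0 were lower beyond it with a pseudocount of 5. In old KO against young KO the median was 0.10 with scaling on housekeeping genes and 0.12 under the reduced total, and in both of these 0 members were higher and 1 lower by 0.5, and 2 were lower beyond the interval. In old WT against young WT the median was -0.19 and 2 members were above 0 on housekeeping genes. Beyond the interval there, 1 was higher and 3 lower without scaling and under the reduced total, 0 higher and 4 lower on housekeeping genes, and 3 lower on upper quartiles. Both old libraries were above both young ones for 1 member on housekeeping genes, against 5, and young KO was the lowest for 3 under each scaling other than none and the reported one. The median of all genes moved to -0.19 and -0.20 in the 2 age comparisons on housekeeping genes and to -0.11 and -0.18 under the reduced total. The change of the KO difference with age was above 0 for 7 to 9 members, with a median of 0.23 to 0.43. With a counting step 2 times as large in the old libraries, an alternative chosen after seeing the data, 6 members were higher and 0 lower beyond the interval in old KO against old WT, Aldoa and Tpi1 having moved inside. The 60 isozyme shares kept the same values with unlisted genes at 0 or the highest row of a shared symbol. All these genes were listed in every library and neither setting altered their values, so this is no check of the shares. No paired analysis was possible because each group has 1 library and the labels carry no replicate numbers, and for the same reason no library could be left out. Depth limits the members to counting errors of 0.08 to 0.41 in young and 0.06 to 0.26 in old cells.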
